A study of Mus musculus with 16 samples.

Results

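The average effect of Trbp deletion on the cardiac transcriptome was measured in 16 of the 16 hearts of the series, 8 Trbp-cKO against 8 control hearts. The effect of each gene was the mean of 2 differences, Trbp-cKO minus control in sham hearts and Trbp-cKO minus control in TAC hearts, so that each surgery carried equal weight and no heart served in both differences. All mice were males that carried floxed Trbp alleles and αMHC-MerCreMer, a transgene with the cardiomyocyte-restricted α-myosin heavy chain promoter whose Cre protein works only in the presence of tamoxifen. Trbp-cKO mice received tamoxifen at 30 mg/kg on 5 consecutive days from 4 weeks of age, and control mice of the same genotype received corn oil. Each group of 4 hearts then had sham surgery or transverse aortic constriction (TAC), a ligation of the aorta that overloads the ventricle with pressure, and ventricles were taken about 8 weeks later, at 16 weeks of age. Because the control mice never had active Cre or tamoxifen, loss of Trbp, tamoxifen and active Cre cannot be told apart in these groups; tamoxifen-treated mice without Cre were not analysed here. The comparison asks which genes move with Trbp deletion regardless of surgery.

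Trbp, encoded by Tarbp2, binds double-stranded RNA and works with Dicer, the nuclease that cuts microRNA precursors into mature microRNAs, and it also binds the kinase PKR and its activator PACT. MicroRNAs recognize messenger RNAs mainly through their seed, the bases near the 5′ end, and lower the stability and translation of the targets. In heart muscle 3 microRNAs lie inside myosin heavy chain genes: miR-208a in Myh6, miR-208b in Myh7 and miR-499 in Myh7b, and the transcription factor Sox6, a repressor of slow-twitch muscle genes, is among the targets named for this family. Slow-twitch and fast-twitch isoforms of the contractile proteins have different speeds and calcium sensitivities, and the adult ventricle uses several slow-twitch ones.

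The mature sequences of these 3 microRNAs are shown because the host gene of miR-499 fell most among the named genes and Sox6 rose. They are given 5′ to 3′ from RefSeq (GRCm38.p6), with the seed (bases 2 to 8) in capitals. On the annotation, miR-208a-3p (chr14:54949072-54949093, minus strand) lies in an intron of Myh6, miR-208b-3p (chr14:54975710-54975731, minus strand) in an intron of Myh7 and miR-499-5p (chr2:155622893-155622913, plus strand) in an intron of Myh7b. The seeds of miR-208a-3p and miR-208b-3p are the same, and that of miR-499-5p has the same first 6 bases.
miR-208a-3p: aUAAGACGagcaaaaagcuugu
miR-208b-3p: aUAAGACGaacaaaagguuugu
miR-499-5p: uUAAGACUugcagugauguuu

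The longest annotated 3′ UTR of Sox6 (6046 bases, GENCODE M21, GRCm38) held 1 match to the shared miR-208 seed and 3 matches to the miR-499-5p seed. They are written as mRNA-sense DNA with the 7 bases that pair with the seed in capitals, and their positions are counted from the first base of the 3′ UTR.
Sox6, miR-208 match at 276: tctgcccatcgcCGTCTTAtgag
Sox6, miR-499 match at 285: cgccgtcttatgAGTCTTAcatt
Sox6, miR-499 match at 598: aactattttaaaAGTCTTAcagg
Sox6, miR-499 match at 620: gagacactgcaaAGTCTTAgaca

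The deposited table held counts of polyadenylated RNA, with 45166994 to 68274222 counts per heart. At this depth 1 CPM (count per library of 1000000 counts) was worth 45.2 to 68.3 counts before the TMM scaling of library sizes. The TMM factors ran from 0.927 to 1.096, so that printed values near 1 CPM rest on roughly as many counts. No library was identical to another. In control TAC hearts 1 and 2, genes of the mitochondrial chromosome took 38.1% and 38.8% of the counts, against 21.7% to 26.3% in the other 6 control hearts and 18.1% to 25.6% in the 8 Trbp-cKO hearts. Trbp-cKO TAC heart 4 stood apart from its group for several matrix genes. Circadian clock genes also differed between the sham groups, as described in a later paragraph. All values are those of single hearts, in the order of replicates 1 to 4, and every adjusted p comes from the edgeR quasi-likelihood fit of all 16 hearts with Benjamini-Hochberg adjustment over 19955 genes. The libraries hold whole ventricle, where fewer cells of a type and less RNA per cell cannot be told apart.

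Tarbp2, the deleted gene (chr15:102518192-102523676, plus strand), was lower in all 8 Trbp-cKO hearts. Tarbp2 stood at 30.6, 32.7, 33.3 and 32.4 CPM in the control sham hearts and at 9.09, 8.39, 11.4 and 9.21 in the Trbp-cKO sham hearts. After TAC, Tarbp2 stood at 25.2, 21.1, 30.6 and 31.1 CPM in control and 7.14, 8.57, 9.05 and 9.74 in Trbp-cKO hearts. The Trbp-cKO and control hearts did not overlap under either surgery, and the fall was alike under both (average log2 fold change -1.70, SE 0.10, adjusted p = 2.57e-07, with -1.76 in sham and -1.65 in TAC hearts). The Cre acts in cardiomyocytes, whereas the libraries hold all cells of the ventricle, and the deleted exons are not given in the sources used here, so that the count covers the whole gene. Gm18584, a pseudogene that shares 86.1% of its 31-base words with other transcripts, mainly those of Tarbp2, fell as well (-1.61), and its reads cannot be separated from those of Tarbp2 by the counting used. Of the 19 tested genes of the small RNA pathway, among them Dicer1, Drosha, Dgcr8, the 4 Argonaute genes and Prkra, which encodes PACT, Tarbp2 was the only one past the adjusted p of 0.05, while 5 had an unadjusted p under 0.05 and DESeq2, run as an alternative, passed 3. The lower genes of this list numbered 3 without Trbp-cKO sham heart 3 and 2 without control TAC heart 3, control TAC heart 4 or Trbp-cKO TAC heart 4, and with library size only 3 genes were higher.

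In the average, 290 genes passed an adjusted p of 0.05 and an absolute log2 fold change of 0.8, 185 higher in Trbp-cKO hearts (0.927% of genes tested) and 105 lower (0.526%). With the adjusted p alone, 767 genes were higher (3.84%) and 321 lower (1.61%). A gene counted as shifted the same way under both surgeries when it was called in the average, had the same sign in sham and in TAC hearts and had an unadjusted p of at most 0.05 in each of them. This left 174 genes, 107 higher (0.536%) and 67 lower (0.336%). Their median log2 fold change was 1.03 in sham and 1.33 in TAC hearts among the higher genes, and -1.17 and -1.25 among the lower ones. In 95 of the 174, all 4 Trbp-cKO hearts lay beyond all 4 control hearts under both surgeries; over all genes tested this held for 270 in the higher direction (1.35%), 104 in the lower (0.521%) and 78 in opposite directions.

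Just inside the fold threshold were Slc25a5 (0.81) and Gm43185 (-0.80), and just outside were Gm40457 (0.794) and Gm38020 (-0.798). Without control TAC hearts 1 and 2 the average gave 465 calls and 263 genes shifted the same way, of which 131 were among the 174. Scaling by library size only, which moved the median of all genes to 0.124, gave 340 higher and 85 lower calls. Of the genes shifted the same way, 193 were then higher and 47 lower. With a clock gene score added to the fit the calls dropped to 39 and the genes shifted the same way to 29, 21 of them among the 174; the score ran from -2.08 to -1.01 in control sham hearts and from 1.32 to 1.58 in Trbp-cKO sham hearts, so that it and the genotype are hard to separate there. Leaving out control TAC hearts 1 and 2 was an alternative chosen after seeing the data. With the share of mitochondrial counts added to the fit, 322 list members passed the adjusted p of 0.05 in place of 97, so that the list counts below, small ones included, depend on that choice.

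Across the 2 surgeries, which share no heart, the calls of one surgery were often not calls of the other. In sham hearts 193 genes were called (0.967%) and in TAC hearts 491 (2.46%). Of the sham calls, 122 (63.2%) had the same sign in TAC hearts and 60 also had an unadjusted p of at most 0.05 there. Of the TAC calls, 330 (67.2%) had the same sign in sham hearts and 132 also had such a p. Over all genes, 52.2% had the same sign, and the 2 log2 fold changes had a Pearson r of 0.160, given as a description since genes are not independent. Genes called in both surgeries numbered 39 in the same direction (24 higher, 15 lower), which is 20.2% of the sham and 7.94% of the TAC calls, and 6 in opposite directions. The average also called 80 genes that neither surgery called alone.

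**Figure D1:**
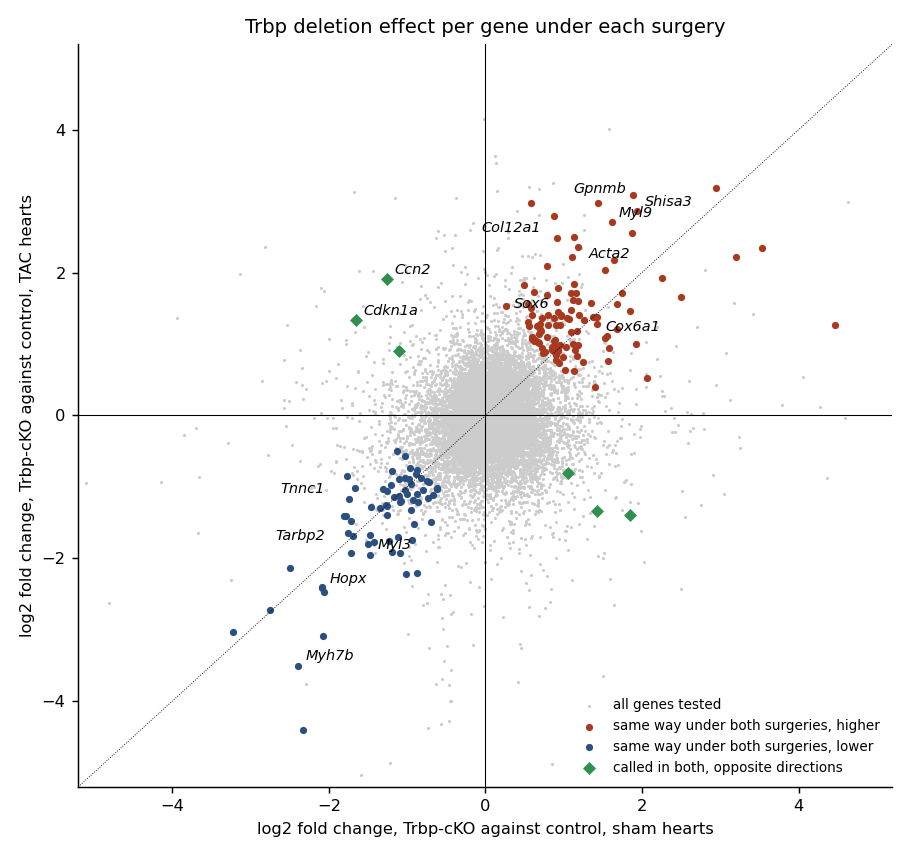
Each point is a gene, with its log2 fold change (Trbp-cKO against control) in sham hearts on the horizontal and in TAC hearts on the vertical axis; 16 genes beyond ±5.2, 3 of them shifted the same way, are not drawn. The 107 higher (red) and 67 lower (blue) genes lie in the 2 quadrants of equal sign on both sides of the dotted line of equal effect, 113 of them with the larger effect in TAC hearts, and 6 genes called in opposite directions (green) lie in the other 2.

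Myh7b, Myl3, Tnnc1 and Tnnt1, which encode slow-twitch contractile proteins, fell under both surgeries. Of 10 tested slow-twitch genes, these 4 were lower and 0 higher in the average, and the median of the list was -0.19 against 0.00630 over all genes. With the clock score in the fit 2 of the list were lower. Over all genes tested, 3.84% were higher and 1.61% lower at the same adjusted p of 0.05, against which each list count below is to be read. The study had measured part of this list in mice of the same kind, so the direction is not independent evidence. Myh7b, a slow myosin heavy chain and host of miR-499 (chr2:155611212-155634307, plus strand), changed most. Myh7b stood at 280.3, 189.9, 199.9 and 218 CPM in the control sham hearts and at 25.9, 43.5, 53.9 and 45.9 in the Trbp-cKO sham hearts. After TAC, Myh7b stood at 343, 244, 195 and 193 CPM in control and 13.9, 24.7, 30.8 and 16.5 in Trbp-cKO hearts. Every Trbp-cKO heart was several times below every control heart (average log2 fold change -2.95, SE 0.21, adjusted p = 1.86e-06, with -2.39 in sham and -3.50 in TAC hearts).

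Myl3, the ventricular and slow-muscle essential light chain (chr9:110741861-110769798, plus strand), is far more abundant. Myl3 stood at 3850.3, 3955, 3715 and 3725 CPM in the control sham hearts and at 1454, 1269.6, 1299 and 1469 in the Trbp-cKO sham hearts. After TAC, Myl3 stood at 2132, 1616, 3737 and 3772 CPM in control and 803, 1078, 699 and 328 in Trbp-cKO hearts. Control TAC hearts 1 and 2 were the lowest controls and Trbp-cKO TAC heart 4 the lowest of all (average log2 fold change -1.71, SE 0.22, adjusted p = 3.84e-04, with -1.47 in sham and -1.95 in TAC hearts). Tnnc1, the calcium-binding troponin C of slow and cardiac muscle (chr14:31208312-31211729, plus strand), had the narrowest spread of the abundant falls. Tnnc1 stood at 1862, 1855, 1787 and 1815 CPM in the control sham hearts and at 497, 521, 596 and 570.1 in the Trbp-cKO sham hearts. After TAC, Tnnc1 stood at 1571, 1315, 2003 and 2018 CPM in control and 746, 892, 792 and 652 in Trbp-cKO hearts. All Trbp-cKO hearts were below all control hearts (average log2 fold change -1.45, SE 0.11, adjusted p = 3.84e-06, with -1.75 in sham and -1.16 in TAC hearts). Tnnt1, slow skeletal troponin T (chr7:4504570-4516382, minus strand), was low throughout, at 16 to 23.2 CPM in control sham hearts and 8.12 to 9.96 in Trbp-cKO sham hearts, and 7.02 to 15.7 in control TAC and 3.81 to 6.67 in Trbp-cKO TAC hearts, again without overlap within either surgery (average log2 fold change -1.04, SE 0.16, adjusted p = 0.00154, with -1.03 in sham and -1.05 in TAC hearts).

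The other slow-twitch genes did not pass the test. Myh7, the slow β-myosin heavy chain, had an average log2 fold change of -0.23 (adjusted p = 0.290), Myl2, the regulatory light chain of the ventricle, -0.15 (adjusted p = 0.529), Tnni1 0.24 (adjusted p = 0.735) and Tpm3 -0.00574 (adjusted p = 0.991). Myh6, the predominant α-myosin of the adult mouse ventricle, stood at 21632 to 23689 CPM in control sham hearts and 17528 to 23331 in Trbp-cKO sham hearts, and 7226 to 21102 in control TAC and 10053 to 20816 in Trbp-cKO TAC hearts, with an average of -0.00149 whose sign changed between settings; its control TAC range was set by hearts 1 and 2 at the low end. Reads of Myh6 and Myh7 are partly interchangeable, since 29.2% of the 31-base words of Myh6 also occur in other transcripts, mostly of other myosins.

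Upstream sequence was searched for the 4 slow-twitch genes that fell and is shown for the 2 of them with a SOX motif, since Sox6 is described as their repressor. Sox6 rose in the average but not in every Trbp-cKO heart: Trbp-cKO TAC heart 4, the lowest of all for Myl3, lay among the control TAC hearts for Sox6. The 250 bases before the annotated start (RefSeq, GRCm38.p6, 5′ to 3′ on the strand of the gene) were searched on both strands for ACAAAG and for the mutually overlapping motifs AACAAT and ACAATG. The RefSeq start can differ from that of the GENCODE positions printed above. For Myl3 and Tnnt1 the searched bases lie inside those positions, and for Myh7b the last of them do. Matches, in capitals, were found upstream of Myh7b (2) and Myl3 (2) and in neither Tnnc1 nor Tnnt1. Such a match occurred in 32.9% of 27025 genes in the table, in 14 of the 33 listed genes that were lower under both surgeries and in 17 of the 74 higher ones.
Myh7b, chr2:155610993-155611242, plus strand: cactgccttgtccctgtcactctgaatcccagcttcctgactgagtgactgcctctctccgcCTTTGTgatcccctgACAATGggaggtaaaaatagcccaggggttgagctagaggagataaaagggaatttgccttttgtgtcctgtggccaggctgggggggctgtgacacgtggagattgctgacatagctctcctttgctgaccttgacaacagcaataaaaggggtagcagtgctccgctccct
Myl3, chr9:110763428-110763677, plus strand: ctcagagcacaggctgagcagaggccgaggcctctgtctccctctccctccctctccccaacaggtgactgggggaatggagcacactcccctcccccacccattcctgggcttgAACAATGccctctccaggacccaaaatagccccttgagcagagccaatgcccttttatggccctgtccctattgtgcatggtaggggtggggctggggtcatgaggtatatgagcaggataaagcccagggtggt

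Of 10 tested genes that the study and general usage group as fast-twitch, 3 were higher and 0 lower in the average, and the 3 rises met the rule for both surgeries (list median 0.73). With the clock score in the fit 1 of the list was higher. The study had chosen part of this list too, and its direction is not independent evidence. Myl9 (chr2:156775420-156781658, plus strand), which encodes a regulatory light chain of smooth muscle and non-muscle myosin, rose most. Myl9 stood at 22.5, 16.6, 24.9 and 25.1 CPM in the control sham hearts and at 83.4, 55.9, 69.7 and 63.6 in the Trbp-cKO sham hearts. After TAC, Myl9 stood at 26.1, 34.1, 17.2 and 18.4 CPM in control and 127, 97.4, 177 and 224 in Trbp-cKO hearts. No Trbp-cKO heart overlapped a control heart of its surgery, and the values in TAC hearts were the higher ones (average log2 fold change 2.16, SE 0.19, adjusted p = 1.25e-05, with 1.61 in sham and 2.71 in TAC hearts). Tpm2, β-tropomyosin, stood at 15.9 to 19.8 CPM in control sham hearts and 28.5 to 39.4 in Trbp-cKO sham hearts, and 17.2 to 35.4 in control TAC and 56.1 to 92.2 in Trbp-cKO TAC hearts (average log2 fold change 1.18, SE 0.14, adjusted p = 1.70e-04, with 0.96 in sham and 1.40 in TAC hearts). Tnni2, fast skeletal troponin I, was near or below 1 CPM in most hearts, at 0.758 to 0.959 CPM in control sham hearts and 2.03 to 2.86 in Trbp-cKO sham hearts, and 0.171 to 0.397 in control TAC and 0.349 to 0.763 in Trbp-cKO TAC hearts, and the TAC groups overlapped (average log2 fold change 1.3, SE 0.19, adjusted p = 0.00111, with 1.53 in sham and 1.08 in TAC hearts). Myom3, an M-band protein of the myomesin family that was on no list, rose as well (1.19, adjusted p = 7.13e-04), and so did Vgll2, a cofactor of TEAD factors in skeletal muscle (1.21, adjusted p = 0.0381), and Csrp2, a LIM protein of smooth muscle (0.93, adjusted p = 3.78e-04); these 3 were chosen after their values had been seen.

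Acta2, smooth muscle α-actin (chr19:34241090-34255590, minus strand), shifted with Myl9. Acta2 stood at 186, 253, 292 and 149 CPM in the control sham hearts and at 611, 389, 487 and 508 in the Trbp-cKO sham hearts. After TAC, Acta2 stood at 109, 87.2, 81.4 and 86.6 CPM in control and 469, 335, 757 and 302 in Trbp-cKO hearts. Control TAC values lay below all control sham values, and the genotypes did not overlap within either surgery (average log2 fold change 1.77, SE 0.20, adjusted p = 1.06e-04, with 1.18 in sham and 2.35 in TAC hearts). Few other smooth muscle and pericyte markers passed the test: of 12 tested, 2 were higher, Acta2 and the pericyte proteoglycan Cspg4 (0.61), with a list median of -0.0134. The summed level of the 12, Acta2 included, was 1414 to 1627 CPM in control sham hearts, 1694 to 1874 in Trbp-cKO sham, 1238 to 1429 in control TAC and 1312 to 1766 in Trbp-cKO TAC hearts. Myh11, the myosin heavy chain that defines smooth muscle, had an average of -0.0571 (adjusted p = 0.848).

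**Figure D2:**
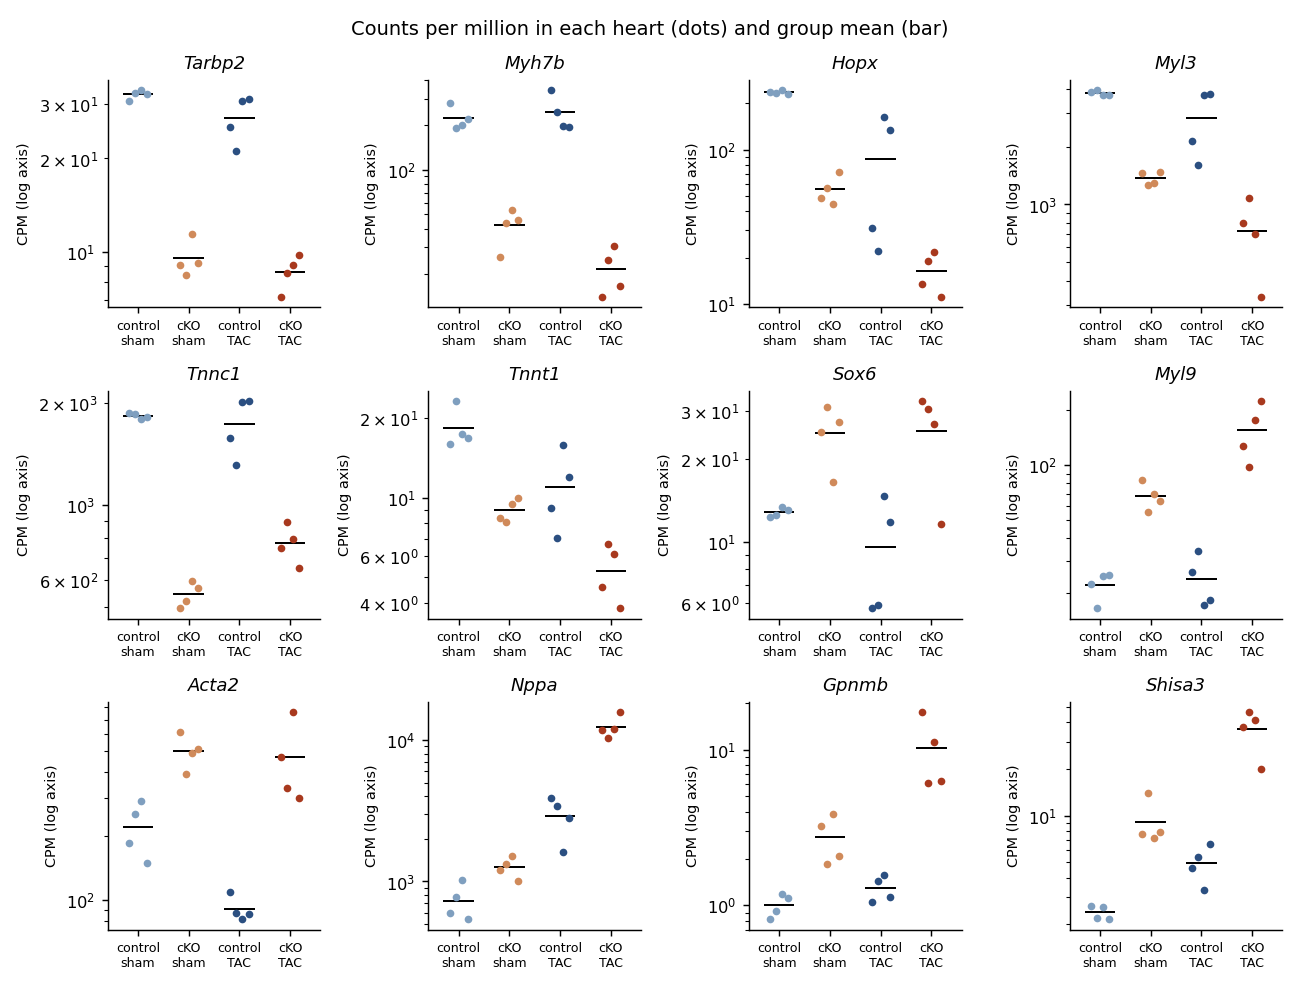
CPM on a log axis in each heart (dots) with the group mean (bar) for 12 genes, in the order control sham, Trbp-cKO sham, control TAC and Trbp-cKO TAC. Tarbp2, Myh7b, Myl3, Tnnc1 and Tnnt1 lie lower and Myl9, Acta2, Gpnmb and Shisa3 higher in Trbp-cKO hearts of both surgeries without overlap, whereas Sox6 overlaps in TAC hearts. Genes named as largest rises or falls had been picked for this lack of overlap.

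**Figure D3:**
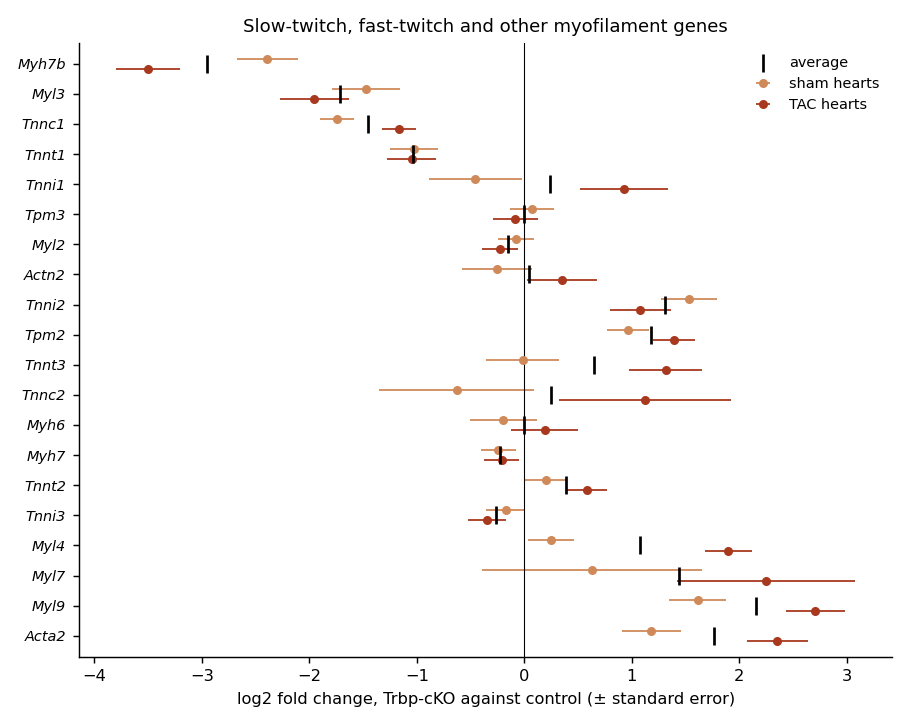
Log2 fold changes with standard errors in sham and TAC hearts, and their average (bar), for contractile genes named in the text or on the slow-twitch and fast-twitch lists. Myh7b, Myl3, Tnnc1 and Tnnt1 are below 0 and Tnni2, Tpm2, Myl9 and Acta2 above 0 under both surgeries, while some of the others, Tnni1 and Tnnc2 among them, change sign between surgeries.

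Among 12 genes named in the literature as hosts or targets of miR-208a, 2 were higher and 2 lower (median -0.0151). Hopx, a homeodomain-only cofactor in cardiomyocytes (chr5:77086988-77115121, minus strand), fell. Hopx stood at 238, 231, 244 and 229 CPM in the control sham hearts and at 49.0, 56.6, 44.7 and 72.1 in the Trbp-cKO sham hearts. After TAC, Hopx stood at 31.2, 22.1, 163 and 133 CPM in control and 13.6, 18.9, 21.7 and 11.1 in Trbp-cKO hearts. Among control TAC hearts, 3 and 4 were high and 1 and 2 low, the latter just above the highest Trbp-cKO TAC heart, and the genotypes did not overlap within either surgery (average log2 fold change -2.25, SE 0.35, adjusted p = 0.00155, with -2.08 in sham and -2.42 in TAC hearts). The antisense gene Hopxos fell too (-1.82), and because whether the counting used strand is not given in the sources used here, reads of the pair cannot be told apart. Sox6 (chr7:115470872-116038796, minus strand) rose. Sox6 stood at 12.4, 12.6, 13.4 and 13.1 CPM in the control sham hearts and at 25.1, 31, 16.5 and 27.3 in the Trbp-cKO sham hearts. After TAC, Sox6 stood at 5.75, 5.92, 14.7 and 11.9 CPM in control and 32.5, 30.6, 26.9 and 11.6 in Trbp-cKO hearts. Control hearts overlapped Trbp-cKO hearts after TAC, where Trbp-cKO TAC heart 4 lay among the controls (average log2 fold change 1.19, SE 0.23, adjusted p = 0.00774, with 0.96 in sham and 1.41 in TAC hearts). Purb, a repressor of myosin genes, was 0.25 (adjusted p = 0.0404), an adjusted p that rose above 0.05 when any of 14 of the 16 hearts was left out, and Med13, a Mediator subunit, was -0.0455 (adjusted p = 0.734).

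Messenger RNAs with a seed match had medians close to those without. Over 15533 protein-coding genes with an annotated 3′ UTR, those with at least 1 match to the miR-499-5p seed (1648 genes) had a median average log2 fold change of 0.0169 against 0.0155 without, and 4.92% against 4.55% of them were higher at an adjusted p of 0.05. For the miR-208 seed (284 genes) the medians were 0.0152 and 0.0157 and the shares 7.75% and 4.53%. The seed of miR-126a-3p, with a match in only 28 genes, gave 0.0622 against 0.0155. The seeds of 12 other families common in the heart, namely miR-133, miR-30, let-7, miR-26, miR-29, miR-24, miR-27, miR-23, miR-22, miR-125, miR-16 and miR-21, gave medians with a match from -0.00817 to 0.0259. 3′ UTRs with a match were longer (median 2796 against 1028 bases for miR-499-5p), no test was made, and mature microRNAs were not measured in these libraries. Of the 107 genes higher under both surgeries, 91 of them protein-coding, 10 held a miR-499-5p match, among them Sox6. Asb4 and Sox6 held a miR-208 match. Of the 67 lower ones, 30 of them protein-coding, 2 held a miR-499-5p match, Kcnv2 and B3galt2. These counts are to be read against the 1648 and 284 of all 15533 genes with a match to the miR-499-5p and the miR-208 seed.

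Cytochrome c oxidase, the last complex of the respiratory chain, has subunits that exist as a liver-type isoform, used in most tissues, and a heart-type isoform. Cox6a1, Cox8a and Cox7a2, the liver-type forms of subunits 6A, 8 and 7A, rose. Cox6a1 (chr5:115345642-115348981, minus strand) had a small spread. Of its 31-base words, 18.45% recur in transcripts of another gene, AC148174.2. Cox6a1 stood at 72.6, 63.7, 62.2 and 71.1 CPM in the control sham hearts and at 223, 171, 185 and 142 in the Trbp-cKO sham hearts. After TAC, Cox6a1 stood at 76.0, 83.6, 67.1 and 67.2 CPM in control and 184, 204, 183 and 196 in Trbp-cKO hearts. The Trbp-cKO hearts lay far above the controls in both surgeries, by a 2.64-fold average (average log2 fold change 1.40, SE 0.0923, adjusted p = 1.19e-06, with 1.42 in sham and 1.38 in TAC hearts). Cox8a (chr19:7215153-7217616, minus strand) rose less. Cox8a stood at 98.0, 85.9, 90 and 94.1 CPM in the control sham hearts and at 189, 159, 171 and 146 in the Trbp-cKO sham hearts. After TAC, Cox8a stood at 88.2, 79.7, 82.5 and 82.5 CPM in control and 153, 171, 158 and 163 in Trbp-cKO hearts. There was again no overlap (average log2 fold change 0.90, SE 0.0685, adjusted p = 3.84e-06, with 0.85 in sham and 0.95 in TAC hearts). Cox7a2 had the smallest rise of the 3, at 209 to 226 CPM in control sham hearts and 267 to 355 in Trbp-cKO sham hearts, and 159 to 197 in control TAC and 216 to 277 in Trbp-cKO TAC hearts (average log2 fold change 0.45, SE 0.0856, adjusted p = 0.00679, with 0.49 in sham and 0.41 in TAC hearts).

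Of the heart-type partners, Cox7a1 fell (average log2 fold change -0.52, SE 0.12, adjusted p = 0.0204, with -0.31 in sham and -0.73 in TAC hearts), while Cox6a2 (-0.21, adjusted p = 0.236) and Cox8b (-0.23, adjusted p = 0.195) did not pass the test. Levels were compared between isoforms per length, as CPM per kilobase of annotated exons. On this scale Cox6a1 made up 6.6, 6.70, 6.74 and 6.93% of Cox6a1 plus Cox6a2 in control sham hearts, 18.2, 17.5, 16.3 and 15.4% in Trbp-cKO sham, 8.21, 10.2, 7.30 and 7.62% in control TAC and 24.2, 20.8, 22.3 and 25.4% in Trbp-cKO TAC hearts. The share of Cox8a over Cox8a plus Cox8b was 13.3, 13.9, 14.2 and 14.4%, 23.2, 23.6, 22.6 and 23.8%, 13.4, 13.7, 14.4 and 14.5% and 29.7, 26.1, 29.8 and 33.7% in the same order of groups. For Cox7a2 over Cox7a2 plus Cox7a1 it was 21.5, 22.7, 21.6 and 22.9%, 33.4, 32.7, 33.0 and 33.0%, 22.6, 25.5, 24.9 and 24.6% and 41.5, 38.7, 39.0 and 49.3%. In each pair the liver-type share was higher in every Trbp-cKO heart than in any control heart of either surgery, and control TAC hearts 1 and 2 did not stand out for subunits 8 and 7A as they did for Hopx. The heart-type isoform remained the larger part of each pair in all 16 hearts.

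**Figure D4:**
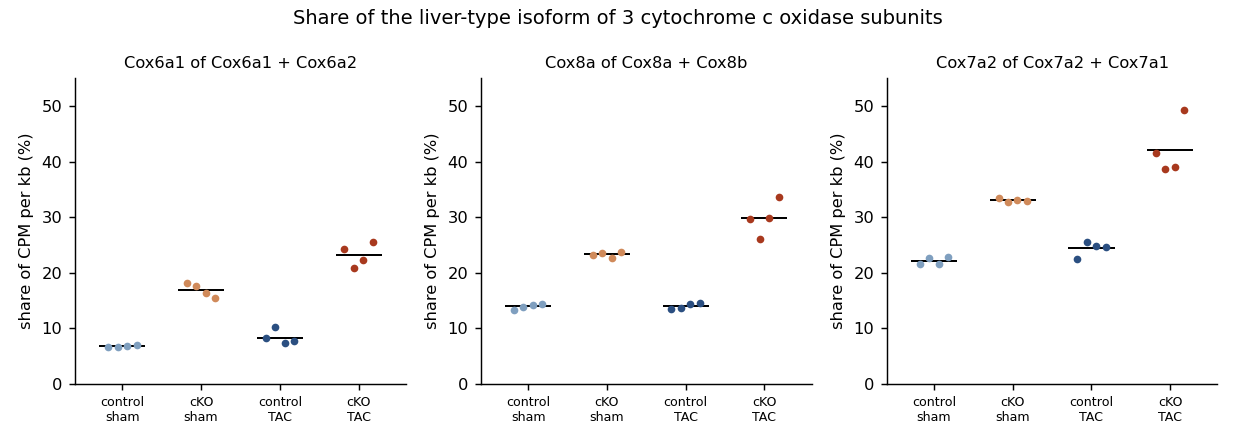
Share of the liver-type isoform (%) in the summed CPM per kilobase of both isoforms of a subunit, for each heart (dots) with the group mean (bar). The mean share of Cox6a1 was 6.74% in control sham hearts, 16.8% in Trbp-cKO sham, 8.33% in control TAC and 23.2% in Trbp-cKO TAC hearts.

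Other subunits of the nuclear respiratory chain did not pass the edgeR test: of 74 tested subunits, 3 were higher and 1 lower, which are the 4 cytochrome c oxidase isoforms above (list median -0.0585). The lower ones numbered 5 with DESeq2, 1 to 2 with 1 heart left out (the most without control TAC heart 2, control TAC heart 4 and Trbp-cKO TAC heart 2), 2 without control TAC hearts 1 and 2 and 28 with the mitochondrial share as a covariate. Of 13 mitochondrial-chromosome mRNAs, 1 was lower, mt-Atp8 (-0.55, adjusted p = 0.0416); the list median was -0.41, with -0.0765 in sham and -0.76 in TAC hearts. The count of lower members ran from 0 to 8 with 1 heart left out, the highest without control TAC heart 4, and was 0 without control TAC hearts 1 and 2 and 9 with DESeq2. Slc25a5, an ADP/ATP carrier of proliferating tissues, met the rule at 0.81. Among 40 genes of glucose uptake, glycolysis and glycogen, 7 were higher and 0 lower (list median 0.23). The lower ones of this list numbered 1 without control TAC heart 2 or Trbp-cKO TAC heart 2, and 2 with DESeq2 or without control TAC hearts 1 and 2. With the mitochondrial share as a covariate 13 were lower. Pgam1, phosphoglycerate mutase, shifted under both surgeries, at 67.7 to 72.8 CPM in control sham hearts and 91.2 to 111 in Trbp-cKO sham hearts, and 48.3 to 78.5 in control TAC and 94.9 to 174 in Trbp-cKO TAC hearts (average log2 fold change 0.91, SE 0.13, adjusted p = 0.00118, with 0.56 in sham and 1.25 in TAC hearts). Of its sequence, 37.1% of the 31-base words recur in other transcripts, mainly its pseudogenes. Pfkp, the platelet-type phosphofructokinase, was 0.65 (adjusted p = 7.85e-04, with 0.51 in sham and 0.79 in TAC hearts) and Hk1, hexokinase 1, 0.60 (adjusted p = 0.0143, with 0.11 in sham and 1.08 in TAC hearts). Of 34 genes of fatty acid uptake and oxidation none passed the edgeR test or DESeq2, and 1 had an unadjusted p under 0.05 (median 0.0220). With the mitochondrial share as a covariate, however, 23 of them were lower, and 2 were without control TAC hearts 1 and 2.

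Of 16 genes of hypertrophy and wall stress, 4 were higher in the average and 0 lower, and the list median was -0.24 in sham and 0.88 in TAC hearts. Nppa, which encodes atrial natriuretic peptide (chr4:148000722-148002079, plus strand), was the most abundant of these in Trbp-cKO TAC hearts. Nppa stood at 597, 775, 1016 and 539.7 CPM in the control sham hearts and at 1209, 1336, 1514 and 1007 in the Trbp-cKO sham hearts. After TAC, Nppa stood at 3858, 3404, 1615 and 2800.4 CPM in control and 11757, 10253, 11949 and 15668 in Trbp-cKO hearts. In TAC hearts the genotypes did not overlap, in sham hearts the highest control heart (3) lay just above the lowest Trbp-cKO heart (4), and values were higher in TAC than in sham hearts of both genotypes (average log2 fold change 1.44, SE 0.19, adjusted p = 4.45e-04, with 0.79 in sham and 2.09 in TAC hearts). The antisense gene Gm13054, which overlaps Nppa, moved with it (1.66). Ankrd1, a stretch-responsive ankyrin repeat protein, was 0.52 (adjusted p = 0.00598, with 0.59 in sham and 0.44 in TAC hearts). Cilp, a matrix protein of pressure-loaded hearts, rose under both surgeries (10.5 to 16.1 CPM in control sham hearts and 21.0 to 37.8 in Trbp-cKO sham hearts, and 68 to 179 in control TAC and 243 to 621 in Trbp-cKO TAC hearts; average log2 fold change 1.39, SE 0.23, adjusted p = 0.00280). Thbs4, thrombospondin 4, passed in the average at 1.23 (adjusted p = 0.0149), but its effect was 0.15 in sham and 2.32 in TAC hearts. Nppb, brain natriuretic peptide, did not pass (0.49, adjusted p = 0.122), and its effect differed between surgeries (-0.40 in sham and 1.39 in TAC hearts; interaction adjusted p = 0.0300).

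Of the matrix genes that passed the test, nearly all were higher. All 5 of the 5 fibrotic genes that the study named from these samples passed in the average, which is not independent evidence of their direction. In sham hearts alone their adjusted p ran from 0.225 to 0.799, and in TAC hearts alone from 0.0129 to 0.0304. Col1a1, the α1 chain of type I collagen (chr11:94936224-94953042, plus strand), stood at 72.2, 87.6, 79.2 and 83.9 CPM in control sham hearts, 97.0, 103, 139 and 108 in Trbp-cKO sham, 233, 225, 132 and 159 in control TAC and 316, 307, 338 and 533 in Trbp-cKO TAC hearts. Trbp-cKO TAC heart 4 was the highest of all (average log2 fold change 0.73, SE 0.15, adjusted p = 0.00879, with 0.47 in sham and 1.00 in TAC hearts). Postn, periostin of activated fibroblasts (chr3:54361109-54391037, plus strand), was the member past the fold threshold. Postn stood at 39.0, 34.6, 42.8 and 39.7 CPM in the control sham hearts and at 70.0, 62.8, 86.4 and 67.6 in the Trbp-cKO sham hearts. After TAC, Postn stood at 388, 443, 150.2 and 195 CPM in control and 699, 485, 539 and 1299 in Trbp-cKO hearts. Its average was 1.12 (adjusted p = 0.0129, with 0.88 in sham and 1.36 in TAC hearts), and the groups did not overlap within either surgery. Col1a2 (0.70), Col3a1 (0.61) and Col5a2 (0.71) were smaller, and the adjusted p of Col5a2 rose above 0.05 when any of 11 of the 16 hearts was left out. The median of the list was 0.47 in sham and 0.997 in TAC hearts, and with the clock score in the fit none of the 5 passed.

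Of 40 tested collagen chains, 10 were higher and 0 lower, against 3.84% and 1.61% of all genes (list median 0.28). Col12a1, a chain of a fibril-associated collagen (chr9:79598991-79718831, minus strand), rose most. Col12a1 stood at 1.16, 1.05, 1.69 and 0.987 CPM in the control sham hearts and at 2.27, 1.88, 2.09 and 2.99 in the Trbp-cKO sham hearts. After TAC, Col12a1 stood at 14.9, 16.7, 6.38 and 7.99 CPM in control and 54.7, 36.4, 35.8 and 130.2 in Trbp-cKO hearts. The groups did not overlap within a surgery, and the difference between the surgeries did not pass the interaction (average log2 fold change 1.70, SE 0.29, adjusted p = 0.00344, with 0.91 in sham and 2.49 in TAC hearts; interaction adjusted p = 0.205). Of the smaller rises, Col14a1 was 0.71 (0.60 in sham and 0.83 in TAC hearts) and Col8a1, a short-chain collagen of vessels and injured matrix, 0.78 (0.65 in sham and 0.91 in TAC hearts). Of 27 matricellular proteins and proteoglycans, 10 were higher and 1 lower. Ccn5, a connective tissue protein also named Wisp2, stood at 2.39 to 4.69 CPM in control sham hearts and 8.56 to 18.5 in Trbp-cKO sham hearts, and 10.8 to 43.2 in control TAC and 52.9 to 85.9 in Trbp-cKO TAC hearts (average log2 fold change 1.44, SE 0.28, adjusted p = 0.00679, with 1.68 in sham and 1.21 in TAC hearts). Fmod, fibromodulin, and Cthrc1, a secreted protein of activated fibroblasts, passed at 1.75 and 1.93, with the highest Trbp-cKO TAC value of each in heart 4. With 1 heart left out, 5 to 12 of this list were higher, the fewest without control sham heart 1 and fewer than 7 also without control sham heart 2, control sham heart 4 and Trbp-cKO sham heart 4, and 16 were higher without control TAC hearts 1 and 2.

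TGF-β is stored in the matrix bound to latency proteins and drives matrix synthesis by fibroblasts. Of 44 tested genes of its signaling, 5 were higher and 1 lower, against 3.84% and 1.61% of all genes (list median 0.0516), and 3 to 6 were higher with 1 heart left out, the fewest without control sham heart 2, control sham heart 3, control sham heart 4, Trbp-cKO sham heart 3 and Trbp-cKO TAC heart 1. Ltbp2, a latent TGF-β binding protein of microfibrils (chr12:84783212-84876532, minus strand), rose under both surgeries. Ltbp2 stood at 7.77, 5.83, 7.78 and 8.58 CPM in the control sham hearts and at 21.1, 13.9, 19.8 and 10.5 in the Trbp-cKO sham hearts. After TAC, Ltbp2 stood at 85.1, 111, 33.3 and 45.5 CPM in control and 219, 125, 167 and 333 in Trbp-cKO hearts. The groups did not overlap within a surgery (average log2 fold change 1.37, SE 0.26, adjusted p = 0.00615, with 1.12 in sham and 1.62 in TAC hearts), although the sham effect alone had an adjusted p of 0.149. The ligand Tgfb3 was higher under both surgeries (13.3 to 15.6 CPM in control sham hearts and 19.5 to 27.1 in Trbp-cKO sham hearts, and 18.8 to 39.2 in control TAC and 71.6 to 139.5 in Trbp-cKO TAC hearts; average log2 fold change 1.17, SE 0.17, adjusted p = 8.58e-04, with 0.62 in sham and 1.72 in TAC hearts). The ligand Tgfb2 passed in the average (average log2 fold change 0.84, SE 0.11, adjusted p = 3.43e-04), at 10.7 to 14.3 CPM in control sham hearts and 14.6 to 16.1 in Trbp-cKO sham hearts, and 23.5 to 40.4 in control TAC and 68.3 to 99.8 in Trbp-cKO TAC hearts, but its effect was larger in TAC hearts (0.29 in sham and 1.39 in TAC hearts; interaction adjusted p = 0.0260). The main ligand Tgfb1 was 0.0480 (adjusted p = 0.927). Of 26 matrix proteases and inhibitors, 5 were higher and 1 lower, with the gelatinase Mmp2 (0.84, with 0.59 in sham and 1.1 in TAC hearts) and the proteoglycanase Adamts15 (1.00, with 1.18 in sham and 0.83 in TAC hearts) past the rule for both surgeries. Of 19 elastic fiber and microfibril genes, 2 were higher, Ltbp2 and Mfap4 (0.96), and 1 lower, Efemp1 (-0.60, with 0.32 in sham and -1.52 in TAC hearts). Of 25 genes of collagen modification, 5 were higher, with the lysyl oxidase homolog Loxl4 the largest (1.05, with 0.72 in sham and 1.37 in TAC hearts), and 1 lower, the prolyl hydroxylase subunit P4ha2 (-0.32), an adjusted p that rose above 0.05 when any of 12 of the 16 hearts was left out.

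The counts of higher matrix genes moved with the setting. With DESeq2, with library size only and without control TAC hearts 1 and 2, in this order, they were 14, 14 and 15 for the collagen chains, 7, 9 and 10 for collagen modification and 5, 7 and 5 for elastic fibers and microfibrils. In the same order they were 14, 14 and 16 for the matricellular proteins and 7, 8 and 8 for TGF-β signaling. With the clock score in the fit they were 0, 0, 0, 0 and 2 for these lists.

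**Figure D5:**
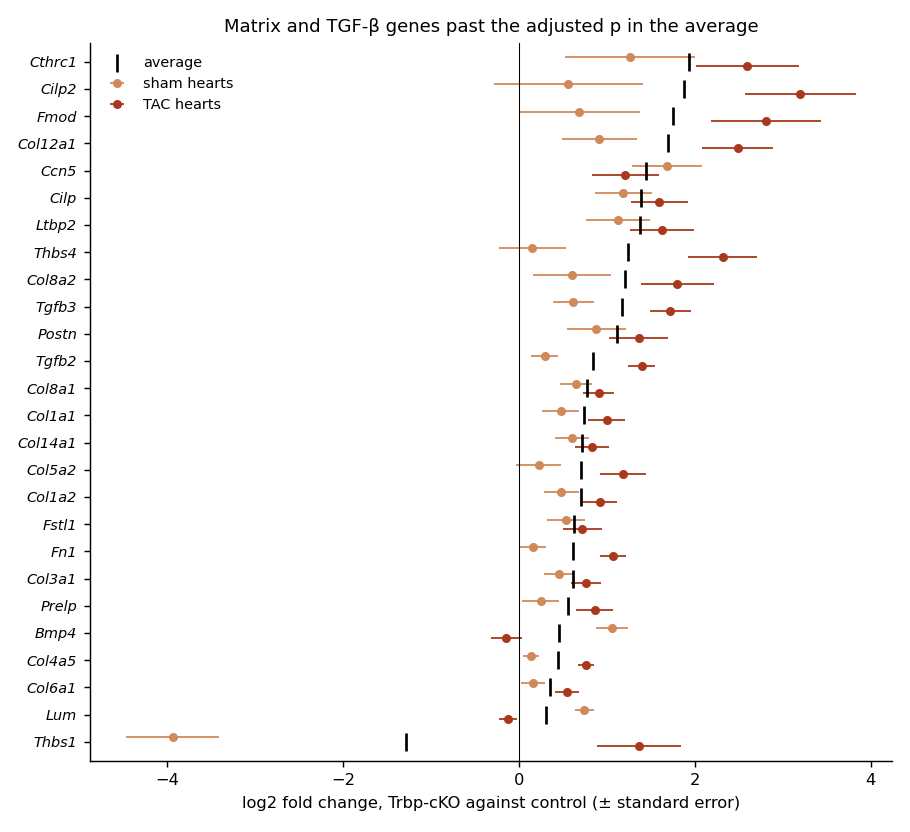
Log2 fold changes with standard errors in sham and TAC hearts, and their average (bar), for the genes of the fibrotic, collagen, matricellular and TGF-β lists that passed an adjusted p of 0.05 in the average. Most lie above 0 under both surgeries and farther from 0 in TAC hearts, Ccn5 lies farther from 0 in sham hearts, and Bmp4, Lum and Thbs1 have opposite signs under the 2 surgeries.

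Marker lists of cell types were checked beside these groups. Of 12 tested activated fibroblast markers, 6 were higher and 0 lower, and the summed level of the list was 240.5 to 394 CPM in control sham hearts, 512 to 762 in Trbp-cKO sham, 377 to 1018 in control TAC and 1396 to 3288 in Trbp-cKO TAC hearts. Acta2, also on the smooth muscle list, made up much of the sham sums, at 149 to 292 CPM in control and 389 to 611 in Trbp-cKO hearts. In sham hearts alone 1 of the 12, Acta2, was higher at the adjusted p of 0.05, and in TAC hearts alone 7 were. The 12 markers of resting fibroblasts had 2 higher, Lum (0.74 in sham and -0.12 in TAC hearts; interaction adjusted p = 0.0129) and Pi16 (0.99 in sham and 0.39 in TAC hearts). The median of this list was 0.50 in sham and -0.0478 in TAC hearts, with a summed level of 1782 to 1892 CPM in control sham hearts, 1999 to 2683 in Trbp-cKO sham, 1999 to 2847 in control TAC and 1951 to 2939 in Trbp-cKO TAC hearts, which overlapped between the genotypes in TAC hearts. Of 13 cardiomyocyte markers, 1 was lower, Myl3, and their sum was 71160 to 76080 CPM in control sham hearts, 59280 to 71740 in Trbp-cKO sham, 29260 to 71960 in control TAC and 40960 to 70820 in Trbp-cKO TAC hearts; control TAC hearts 1 and 2 gave the low end. The lower cardiomyocyte markers numbered 9 with the mitochondrial share as a covariate and 2 without control TAC hearts 1 and 2, and 1 was higher with DESeq2 and with library size only. Of 15 macrophage markers, 2 were higher, Ccr2 (0.89) and Lgals3 (1.63), whose adjusted p rose above 0.05 without most single hearts. Of 12 endothelial, 12 lymphocyte and 6 erythroid markers none passed the edgeR test or DESeq2, and 0, 1 and 0 had an unadjusted p under 0.05. Of 7 neutrophil and mast cell markers 1 was lower, Csf3r, and of 7 Schwann and neuronal markers 1 was higher, Tubb3. Of 7 atrial markers, 2 were higher, Nppa and the atrial light chain Myl4 (1.07, with 0.25 in sham and 1.90 in TAC hearts). Of 8 adipocyte markers only Cidea, a lipid droplet protein, was high enough to be tested, and it rose under both surgeries (13.4 to 19.4 CPM in control sham hearts and 26.1 to 30.1 in Trbp-cKO sham hearts, and 9.68 to 16.9 in control TAC and 27.7 to 35.6 in Trbp-cKO TAC hearts; average log2 fold change 0.95, SE 0.12, adjusted p = 2.51e-04). The part of cell composition in the matrix and muscle results was not tested.

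Several of the largest shared rises belong to none of these groups. The naming rule admitted only genes without overlap between the genotypes, so that this trait is no result for them. Shisa3, a regulator of Wnt and FGF receptors (chr5:67607882-67623552, plus strand), had the largest average effect among the rises that the naming rule selected. Shisa3 stood at 2.63, 2.20, 2.58 and 2.15 CPM in the control sham hearts and at 7.66, 14.0, 7.16 and 7.91 in the Trbp-cKO sham hearts. After TAC, Shisa3 stood at 4.62, 5.44, 3.31 and 6.58 CPM in control and 37.2, 46.4, 41.2 and 20.0 in Trbp-cKO hearts. Trbp-cKO hearts lay above controls under both surgeries, and Trbp-cKO TAC hearts above all others (average log2 fold change 2.40, SE 0.20, adjusted p = 8.39e-06, with 1.94 in sham and 2.86 in TAC hearts). Gpnmb, a transmembrane glycoprotein of macrophages and melanocytes (chr6:49036546-49070929, plus strand), showed the same order at a lower level. Gpnmb stood at 0.814, 0.928, 1.18 and 1.11 CPM in the control sham hearts and at 3.25, 1.84, 3.84 and 2.08 in the Trbp-cKO sham hearts. After TAC, Gpnmb stood at 1.05, 1.44, 1.56 and 1.14 CPM in control and 17.3, 6.07, 11.1 and 6.26 in Trbp-cKO hearts. It did not overlap either (average log2 fold change 2.21, SE 0.24, adjusted p = 7.35e-05, with 1.44 in sham and 2.97 in TAC hearts). Angptl7, a secreted angiopoietin-like protein, stood at 2.08 to 2.77 CPM in control sham hearts and 3.47 to 7.47 in Trbp-cKO sham hearts, and 7.85 to 19.8 in control TAC and 25.2 to 209 in Trbp-cKO TAC hearts (average log2 fold change 1.81, SE 0.37, adjusted p = 0.0102, with 1.13 in sham and 2.50 in TAC hearts). Pamr1, a secreted peptidase-domain protein, stood at 1.31 to 2.33 CPM in control sham hearts and 3.27 to 3.95 in Trbp-cKO sham hearts, and 5.08 to 13.1 in control TAC and 21.8 to 62.7 in Trbp-cKO TAC hearts (average log2 fold change 1.48, SE 0.24, adjusted p = 0.00261, with 1.13 in sham and 1.84 in TAC hearts). Rasl11b, a small Ras-like GTPase, stood at 16.4 to 19.8 CPM in control sham hearts and 26.8 to 43.8 in Trbp-cKO sham hearts, and 30.4 to 39.1 in control TAC and 83.5 to 150.3 in Trbp-cKO TAC hearts (average log2 fold change 1.35, SE 0.14, adjusted p = 5.31e-05, with 0.93 in sham and 1.78 in TAC hearts). C1qtnf6, a C1q and TNF-related secreted protein, Grin2c, a subunit of the NMDA receptor, and Cela1, a pancreatic-type elastase, had effects of similar size under both surgeries. The log2 fold changes of C1qtnf6 were 1.43 in sham and 1.28 in TAC hearts, those of Grin2c 1.20 in sham and 1.41 in TAC hearts and those of Cela1 1.26 in sham and 1.33 in TAC hearts.

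Among the shared falls outside the muscle lists, Bex1, a brain-expressed X-linked protein (chrX:136213972-136215513, minus strand), was one of the largest. Of its 31-base words, 29.99% recur in other transcripts, mainly those of Bex2, Bex4 and Gm3096. Bex1 stood at 2.84, 3.55, 4.17 and 2.78 CPM in the control sham hearts and at 1.07, 0.756, 1.27 and 1.04 in the Trbp-cKO sham hearts. After TAC, Bex1 stood at 3.29, 4.69, 3.97 and 8.20 CPM in control and 1.12, 2.73, 1.53 and 0.874 in Trbp-cKO hearts. The 2 surgeries gave nearly the same effect (average log2 fold change -1.69, SE 0.24, adjusted p = 8.72e-04, with -1.69 in sham and -1.69 in TAC hearts); Tceal7, whose exons overlap Bex1 on the other strand, fell too (-1.59), and the pair cannot be told apart without strand. Dct, dopachrome tautomerase of the melanin pathway, stood at 4.12 to 5.98 CPM in control sham hearts and 0.818 to 2.19 in Trbp-cKO sham hearts, and 6.49 to 9.09 in control TAC and 1.02 to 2.93 in Trbp-cKO TAC hearts (average log2 fold change -1.60, SE 0.22, adjusted p = 6.27e-04, with -1.42 in sham and -1.78 in TAC hearts). Rhd, the Rhesus blood group protein, stood at 5.93 to 8.16 CPM in control sham hearts and 1.70 to 2.83 in Trbp-cKO sham hearts, and 3.11 to 7.41 in control TAC and 1.28 to 2.32 in Trbp-cKO TAC hearts (average log2 fold change -1.59, SE 0.18, adjusted p = 1.53e-04, with -1.72 in sham and -1.47 in TAC hearts), while the erythroid marker sum overlapped between all groups. Ret, the receptor tyrosine kinase for GDNF-family ligands, stood at 6.4 to 14.3 CPM in control sham hearts and 2.77 to 5.18 in Trbp-cKO sham hearts, and 3.82 to 5.80 in control TAC and 1.89 to 3.42 in Trbp-cKO TAC hearts (average log2 fold change -1.09, SE 0.19, adjusted p = 0.00336, with -1.21 in sham and -0.97 in TAC hearts). B3galt2, a galactosyltransferase, was -1.17 (-1.3 in sham and -1.03 in TAC hearts), Cryba4, a lens crystallin, -1.14 (-0.95 in sham and -1.32 in TAC hearts), and Sec31b, a coat protein of vesicle transport, -0.95 (-0.74 in sham and -1.15 in TAC hearts). The mitochondrial isoleucine tRNA gene mt-Ti had an average of -1.09 (-0.70 in sham and -1.49 in TAC hearts), in exon overlap with mt-Nd1 and in libraries selected for poly(A), and the uncharacterized gene Gm44769 -1.12 (-1.11 in sham and -1.13 in TAC hearts).

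The following members of the 174 were chosen after their values had been seen, for their level and their role. Gpx3, the secreted glutathione peroxidase (chr11:54902453-54910377, plus strand), was among the most abundant rises. Gpx3 stood at 300.4, 316, 358 and 375 CPM in the control sham hearts and at 556, 590.4, 679.8 and 523 in the Trbp-cKO sham hearts. After TAC, Gpx3 stood at 422, 453, 349 and 394 CPM in control and 883, 921, 1224 and 1243 in Trbp-cKO hearts. Dstn, destrin, which severs actin filaments, rose alike. Dstn stood at 111, 112, 165 and 139 CPM in the control sham hearts and at 277, 260.1, 211 and 239.6 in the Trbp-cKO sham hearts. After TAC, Dstn stood at 94.3, 104, 115 and 134 CPM in control and 273, 298, 288 and 221 in Trbp-cKO hearts. Neither gene overlapped between genotypes within a surgery (average log2 fold change 1.1, SE 0.11, adjusted p = 4.00e-05 for Gpx3 and average log2 fold change 1.09, SE 0.11, adjusted p = 5.31e-05 for Dstn). Of other cytoskeletal genes, the intermediate filament protein Synm was 0.93 (0.55 in sham and 1.31 in TAC hearts), the myosin light chain Myl6b 0.84 (0.60 in sham and 1.07 in TAC hearts), the actin-binding Efhd2 0.90 (0.27 in sham and 1.54 in TAC hearts) and Kbtbd13, a sarcomere-associated protein, 1.26 (1.58 in sham and 0.95 in TAC hearts). Of secreted and lysosomal proteins, the collagen-degrading cathepsin Ctsk was 1.13 (1.09 in sham and 1.17 in TAC hearts), the hyaluronidase Hyal1 0.83 (0.72 in sham and 0.94 in TAC hearts) and the growth factor Pdgfc 1.04 (0.58 in sham and 1.5 in TAC hearts). Genes of Wnt signaling included the ligand Wnt5b at 0.88 (0.85 in sham and 0.92 in TAC hearts), the receptor Lgr6 at 0.84 (0.63 in sham and 1.05 in TAC hearts) and the inhibitor Dact1 at 0.89 (1.39 in sham and 0.39 in TAC hearts). Nmrk2, a muscle enzyme of NAD synthesis, rose, with 9.28 to 15.1 CPM in control sham hearts and 15.1 to 23.8 in Trbp-cKO sham hearts, and 34.3 to 58.4 in control TAC and 85.7 to 127 in Trbp-cKO TAC hearts (average log2 fold change 1.04, SE 0.15, adjusted p = 8.83e-04), and so did Epor, the erythropoietin receptor, with the larger effect in sham hearts (1.3, with 2.06 in sham and 0.53 in TAC hearts).

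Of the falls chosen in the same way, Epha4, an ephrin receptor (chr1:77367185-77515088, minus strand), had the smallest spread. Epha4 stood at 38.5, 42.5, 45.2 and 33.5 CPM in the control sham hearts and at 20.5, 21.9, 16.1 and 22.5 in the Trbp-cKO sham hearts. After TAC, Epha4 stood at 21.6, 21.4, 27.1 and 27.8 CPM in control and 13.3, 14.7, 14.3 and 10.3 in Trbp-cKO hearts. The genotypes did not overlap within a surgery (average log2 fold change -0.94, SE 0.10, adjusted p = 9.28e-05, with -0.98 in sham and -0.90 in TAC hearts). Ppip5k2, an inositol pyrophosphate kinase, was -1.06 (-0.93 in sham and -1.19 in TAC hearts), Ddc, which decarboxylates L-DOPA, -1.16 (-1.17 in sham and -1.15 in TAC hearts), Slc52a3, a riboflavin transporter, -1.16 (-1.25 in sham and -1.06 in TAC hearts) and the kinase gene Sbk1 -0.95 (-1.02 in sham and -0.87 in TAC hearts). Airn, the imprinted noncoding RNA antisense to Igf2r, whose reads may not be separable from those of Igf2r, was -0.85 (-0.82 in sham and -0.87 in TAC hearts). In each of the 4 protein-coding genes after Epha4 some Trbp-cKO hearts overlapped control hearts under at least 1 surgery.

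Of 31 potassium, sodium and pacemaker channel genes, 3 were higher and 1 lower. The lower ones numbered 2 without control TAC heart 1, 3 without control TAC heart 2, 3 with DESeq2 and 10 with the mitochondrial share as a covariate. Kcnv2, a modifier subunit of voltage-gated potassium channels (chr19:27322588-27337179, plus strand), met the rule for both surgeries. Kcnv2 stood at 11.5, 10.9, 7.43 and 11.4 CPM in the control sham hearts and at 5.66, 5.46, 5.36 and 5.15 in the Trbp-cKO sham hearts. After TAC, Kcnv2 stood at 1.87, 0.759, 5.00 and 2.98 CPM in control and 1.1, 0.919, 0.836 and 0.349 in Trbp-cKO hearts. In TAC hearts control heart 2 lay among the Trbp-cKO hearts. Its average was -1.34 (adjusted p = 0.0142, with -0.93 in sham and -1.74 in TAC hearts). Among the higher ones, Hcn2, a pacemaker channel, was 0.92 (adjusted p = 0.0148, with 0.40 in sham and 1.44 in TAC hearts) and Kcnip2, a partner of the transient outward channel, 1.06 (adjusted p = 0.0354, with 0.66 in sham and 1.47 in TAC hearts). Of 28 calcium handling genes, 1 was higher, Calm2, and 1 lower, Itpr2, near the 3.84% and 1.61% over all genes, and the lower ones numbered 0 to 1 with 1 heart left out and 4 with DESeq2. Of 20 intercalated disc genes none passed the edgeR test, 2 had an unadjusted p under 0.05 and DESeq2 passed 1. With the mitochondrial share as a covariate, 8 intercalated disc genes were lower and 1 higher, and 11 calcium handling genes were lower. Of 25 genes of the adrenergic, angiotensin and endothelin systems 3 were higher, Grk3, Grk5 and Npr3.

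Some genes passed in the average although the shift lay mainly in 1 surgery, and clock genes were among them. Of 13 clock genes of the Dbp and Per arm, 3 were higher, and of 6 of the Bmal1 arm 1 was lower, Nfil3. Bhlhe41, a repressor of the clock, was one of the 3 and was higher under both surgeries (0.75, with 0.96 in sham and 0.54 in TAC hearts). The higher ones of the Dbp and Per arm numbered 5 without Trbp-cKO TAC heart 3 and 8 with library size only, and the median of that arm was 0.68 in sham and 0.0935 in TAC hearts. Dbp stood at 28.6, 21.1, 37.0 and 35.0 CPM in the control sham hearts and at 189.7, 169, 153 and 157 in the Trbp-cKO sham hearts. After TAC, Dbp stood at 71.4, 59.1, 73.7 and 75.9 CPM in control and 85.6, 93.2, 31.8 and 43.9 in Trbp-cKO hearts. Dbp, a clock output factor, was several times higher in Trbp-cKO than in control sham hearts and overlapped in TAC hearts (2.46 in sham and -0.14 in TAC hearts; interaction adjusted p = 0.00647). Arntl, which encodes Bmal1, went the other way in sham hearts (-2.57 in sham and 0.78 in TAC hearts; interaction adjusted p = 0.0475). The time of day of collection is not given in the sources used here, and its part in any sham effect was not tested. Of 33 heat shock proteins and cochaperones, 5 were lower and 0 higher, with Hspa1b at -2.06 (-3.85 in sham and -0.27 in TAC hearts) and Hsph1 at -1.12 (-1.80 in sham and -0.44 in TAC hearts); none of them met the rule for both surgeries, and 0 to 7 passed with 1 heart left out, none without control sham heart 3, control sham heart 4 and Trbp-cKO sham heart 4. The adjusted p of Hspa1b rose above 0.05 when any of 12 of the 16 hearts was left out, and that of Hsph1 when any of 10 was. Hspa1b shares 68% of its 31-base words with other genes, chiefly Hspa1a. Of 24 immediate early genes, 1 was higher, Ier3 (0.95, with 0.71 in sham and 1.18 in TAC hearts), and 0 lower, although only 2 of the 24 lay above 0. The list median was -0.43, with -0.93 in sham and 0.10 in TAC hearts. DESeq2 passed 3 as lower in the average.

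The interaction, the difference between the TAC and the sham effect, passed an adjusted p of 0.05 in 209 of all genes (1.05%) and in 19 of the 290 average calls, 17 higher and 2 lower, and 5 of these were among the 174. Stbd1, which binds glycogen, stood at 8.79 to 16.2 CPM in control sham hearts and 12.1 to 14.5 in Trbp-cKO sham hearts, and 1.44 to 2.19 in control TAC and 13.0 to 27 in Trbp-cKO TAC hearts, so that its average of 1.87 came from TAC hearts (0.12 in sham and 3.62 in TAC hearts; interaction adjusted p = 3.36e-04). Drd2, a dopamine receptor, did likewise (0.582 to 1.93 CPM in control sham hearts and 0.849 to 1.77 in Trbp-cKO sham hearts, and 0.0909 to 0.298 in control TAC and 1.11 to 3.48 in Trbp-cKO TAC hearts, with 0.14 in sham and 3.54 in TAC hearts). Gm12381, an uncharacterized gene, stood at 0.335 to 1.45 CPM in control sham hearts and 0.271 to 0.727 in Trbp-cKO sham hearts, at 0 in all 4 control TAC hearts and at 0.117 to 0.280 in Trbp-cKO TAC hearts. Thbs1, thrombospondin 1, an activator of latent TGF-β, had an average of -1.29 made of effects of opposite sign (-3.94 in sham and 1.36 in TAC hearts; interaction adjusted p = 0.00273). Thbs1 stood at 243, 213, 262 and 55 CPM in the control sham hearts and at 18.2, 10.2, 11.7 and 10.3 in the Trbp-cKO sham hearts. After TAC, Thbs1 stood at 28.2, 46.1, 19.5 and 30.1 CPM in control and 55.6, 42.2, 53.7 and 166 in Trbp-cKO hearts. Gm10097 was lower mainly in sham hearts (-1.91 in sham and -0.18 in TAC hearts).

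The 6 genes called in opposite directions under the 2 surgeries had averages from -0.16 to 0.33 on the log2 scale. Ccn2, connective tissue growth factor, stood at 131 to 194 CPM in control sham hearts and 60.6 to 81.7 in Trbp-cKO sham hearts, and 163 to 359.9 in control TAC and 720.5 to 1239 in Trbp-cKO TAC hearts (-1.25 in sham and 1.91 in TAC hearts). Cdkn1a, the cell cycle inhibitor p21, was -1.65 in sham and 1.33 in TAC hearts, and its Trbp-cKO TAC group held 1 far value in heart 4 (148 CPM). Rcan1, a regulator of calcineurin, was -1.1 in sham and 0.90 in TAC hearts. Akap5, a kinase anchoring protein, was 1.42 in sham and -1.34 in TAC hearts, 9430062P05Rik 1.85 in sham and -1.40 in TAC hearts and Cdh19, a cadherin of Schwann cells, 1.06 in sham and -0.81 in TAC hearts.

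Few genes of the lists tied to stress and to the drug passed the edgeR test in the average. Of 32 interferon-stimulated genes 1 was higher, Ifit2 (0.50); the list median was 0.73 in sham and -0.21 in TAC hearts. The higher ones of this list numbered 3 with DESeq2, 5 with library size only, 1 to 2 with 1 heart left out (the most without control sham heart 1, control TAC heart 1, control TAC heart 2 and Trbp-cKO sham heart 2), 7 without control TAC hearts 1 and 2 and 20 with the mitochondrial share as a covariate. Of 24 ATF4 targets none passed the edgeR test, 5 had an unadjusted p under 0.05 and DESeq2 passed 2. Of 24 p53 targets 1 was higher, Phlda3 (0.46). Of 9 tested genes of the estrogen receptor and its targets none passed the edgeR test, 5 had an unadjusted p under 0.05 and DESeq2 passed 2. Esr1 itself stood at 2031 to 3181 CPM in control sham hearts and 1429.8 to 2357 in Trbp-cKO sham hearts, and 889 to 2544 in control TAC and 56.3 to 1091 in Trbp-cKO TAC hearts; the MerCreMer transgene carries part of Esr1 and is present in all mice, so reads of the gene and of the transgene cannot be told apart.

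Of the 174 genes, 121 are protein-coding, 85.0% of the higher and 44.8% of the lower genes against 78.8% of all genes tested, and 106 had a mean log2 CPM of at least 1. A pair of rises had reads in some hearts only. The annotated locus Myl12b (ENSMUSG00000117098) was at 0 in all 8 control hearts, at 0, 1.54, 6.12 and 0 CPM in Trbp-cKO sham and 16.6, 0, 1.06 and 2.03 in Trbp-cKO TAC hearts. Gm49450 was at 0 in 7 of 8 control hearts, at 0, 9.76, 0.234 and 4.04 CPM in Trbp-cKO sham and at 19.8, 0, 14.2 and 0 in Trbp-cKO TAC hearts. Snhg11, a noncoding RNA with reads in every Trbp-cKO heart, was at 2.3 to 2.77 CPM in control sham hearts and 2.70, 11.3, 9.37 and 14.0 in Trbp-cKO sham hearts, and Trbp-cKO TAC heart 4 stood far above the others of its group (3.01, 5.53, 6.01 and 71.9). The fitted fold changes of Myl12b and Gm49450 depend on the prior count and are not given. Of all 174 genes, 113 had the larger absolute effect in TAC hearts. When each heart was left out in turn, 34 of the genes followed by name lost the adjusted p of 0.05 at least once, among the 30 largest rises and falls only Gm44769, without control sham heart 1 or 3. The others were Bmp4, Ccr2, Chordc1, Ciart, Cilp2, Col5a2, Col6a1, Col8a2, Csf3r, Cthrc1, Ddah1, Dnaja1, Efemp1, Fmod, Fstl1, Gm12381, Grk3, Hsp90aa1, Hspa1b, Hsph1, Itpr2, Kcnip2, Lgals3, Lum, Npr3, P4ha2, Pcolce2, Phlda3, Prelp, Purb, Tcap, Thbs1 and mt-Atp8. The 30 had been picked for not overlapping between genotypes under either surgery in these same hearts. That they mostly kept the call therefore follows in part from their choice and is not independent support. Of list counts not yet given with such a range, the higher genes of the adrenergic, angiotensin and endothelin list fell to 1 without control sham heart 1, control sham heart 4, control TAC heart 1, Trbp-cKO sham heart 2 or Trbp-cKO sham heart 4. The higher resting fibroblast markers fell to 1 without control sham heart 1, control sham heart 3 or Trbp-cKO TAC heart 1. The p53 targets fell to 0 without control sham heart 2, control sham heart 4, Trbp-cKO sham heart 1, Trbp-cKO sham heart 3 or Trbp-cKO TAC heart 1.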

How the data were processed

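Polyadenylated RNA of 16 ventricles was sequenced by the authors as paired reads of 150 bases. Per the labels and methods, reads were trimmed with Cutadapt 2.3, aligned to GRCm38 with HISAT2 2.1.0 and assembled with StringTie 1.3.4, and the deposited table holds raw counts per gene that the authors derived from StringTie coverage with the prepDE script, rounded to whole numbers. The annotation release, the read length given to that script and whether strand was used are not given in the sources used here, so that counts may differ from counted fragments by a common factor; all of them were halved in 1 alternative. All 16 columns were matched to samples by name.

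Genes were filtered with filterByExpr of edgeR 4.0.16 (R 4.3.3), which left 19955 of 55573; counts were scaled by TMM and fitted with 1 coefficient per group in the robust quasi-likelihood model, and 4 contrasts were tested (the average, sham, TAC and their difference) with Benjamini-Hochberg adjustment. Two-sided tests were used throughout. CPM values use TMM-scaled library sizes, and gene positions, 3′ UTRs and exon lengths come from GENCODE M21 on GRCm38, to which 55480 gene identifiers were matched. Each library was taken as 1 mouse heart, since the labels number the replicates and the study states 4 biological replicates per group.

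Named by rule were Tarbp2, list members, and, ranked by log2 fold change, 15 rises and 15 falls that shifted the same way, did not overlap between genotypes under either surgery and averaged at least 1 in log2 CPM. Up to 3 average calls per direction that passed the interaction (2 of them lower) and 5 opposite genes ranked by interaction were added, and others are said to be chosen later. The members and all gene lists were chosen with earlier results of these data known. The fit was also run on simulated counts, the outcome of which is not given here, and no result above rests on it. Alternatives covered scaling, filter, fold threshold, DESeq2 1.42.0, additive and unadjusted models, a replicate block, covariates, and leaving out each heart. No columns of the authors' own comparisons were used.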

Additional observations from a re-analysis of the deposited data

Results flagged for a closer look

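In 27 of 528 groups of 4 hearts, taken over 132 genes, 1 heart lay so far from the other 3 that its gap to the nearest exceeded Dixon's 95% critical value of the range. This is 5.11% of the groups, and chance alone gives about 1 in 20. Trbp-cKO TAC heart 4 accounted for 10 of them, mostly matrix genes, with Cdkn1a (148 CPM, next 55.3), Col1a1 (533 CPM, next 338), Col1a2 (681 CPM, next 399.7), Cthrc1 (8.58 CPM, next 2.67), Dct (1.02 CPM, next 2.71), Fmod (217 CPM, next 56.3), Mfap4 (179 CPM, next 89.3), Pamr1 (62.7 CPM, next 27.2), Thbs1 (166 CPM, next 55.6) and Thbs4 (482 CPM, next 205). All but Dct, where it was the lowest, were highest in that heart. The remaining ones were spread over 12 hearts. Trbp-cKO TAC heart 2 stood apart for Gm12381 (0.280 CPM, next 0.140). Trbp-cKO sham heart 1 stood apart for Ccn5 (18.5 CPM, next 9.90), Dct (0.818 CPM, next 2.1), Gm12381 (0.727 CPM, next 0.278) and Gm44769 (0.432 CPM, next 1.62). Trbp-cKO sham heart 2 stood apart for Grin2c (20.6 CPM, next 14.6), Hsph1 (85.0 CPM, next 62.8) and Shisa3 (14.0 CPM, next 7.91). Trbp-cKO sham heart 3 stood apart for Col14a1 (22.2 CPM, next 19.3). Control TAC heart 1 stood apart for Nfil3 (7.67 CPM, next 11.4). Control TAC heart 2 stood apart for Cox7a1 (263 CPM, next 328). Control TAC heart 3 stood apart for Stbd1 (2.19 CPM, next 1.53). Control TAC heart 4 stood apart for Ciart (10.2 CPM, next 6.28). Control sham heart 1 stood apart for Cela1 (0.750 CPM, next 1.29). Control sham heart 2 stood apart for Pgam1 (72.8 CPM, next 68.6). Control sham heart 3 stood apart for Kcnv2 (7.43 CPM, next 10.9). Control sham heart 4 stood apart for Kcnip2 (186 CPM, next 224). No part of these values in the averages was tested beyond leaving out each heart.

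The effect of the deletion differed between surgeries at an interaction adjusted p of 0.05 in the edgeR fit for 23 of the 132 genes checked. Over all genes tested, 209 did so (1.05%). Some of the 132 had been named because they passed the interaction or had opposite signs, so the 2 shares cannot be compared. The difference is the TAC minus the sham log2 fold change. It was positive for Gm12381 (7.30), Thbs1 (5.30), Stbd1 (3.50), Drd2 (3.4), Arntl (3.35), Ccn2 (3.16), Cdkn1a (2.98), Rcan1 (2.00), Nfil3 (1.88), Nppb (1.79), Gm10097 (1.73), Myl4 (1.65), Hsp90aa1 (1.27), Ddah1 (1.1), Tgfb2 (1.1), Slc2a1 (1.02) and Col4a5 (0.62), and the value of Gm12381 depends on the prior count, since all control TAC hearts were at 0. It was negative for 9430062P05Rik (-3.24), Akap5 (-2.76), Dbp (-2.60), Efemp1 (-1.84), Bmp4 (-1.20) and Lum (-0.86). Of these genes, Ccn2, Cdkn1a, Rcan1, Akap5 and 9430062P05Rik were called in both surgeries with opposite signs. Of genes named in the report outside those checked, Cdh19 (-1.87), also called with opposite signs, Epor (-1.53), Dact1 (-1.003) and Efhd2 (1.27) passed the interaction as well.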

How the results depend on the processing

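Tarbp2 kept its fall and its call in every alternative run, at -1.81 to -1.55 on the log2 scale. The 290 average calls became 190 at a log2 fold change of 1, 1088 with no fold threshold, 106 in 8 against 8 hearts with no surgery term, 39 with the clock score and 863 with the mitochondrial share as a covariate, and 465 without control TAC hearts 1 and 2. The 174 genes shifted the same way became 558, 97, 29, 473 and 263 under the same settings, the fold of 1 apart. The 19 average calls with an interaction became 59 with DESeq2, 71 with no fold threshold, 1 with the clock score and 112 with the mitochondrial share. The 97 list members past the adjusted p became 158 with DESeq2, 11 with the clock score, 322 with the mitochondrial share and 148 without control TAC hearts 1 and 2. With 1 heart left out the counts ran from 226 to 320 average calls, 137 to 186 genes shifted the same way, 7 to 28 interactions (lowest without Trbp-cKO sham heart 4, highest without control TAC heart 4) and 69 to 102 list members. The cause of these shifts was not tested. The other alternatives left these totals within 1.5 times, apart from the replicate block, given below, but not every split by direction. With library size only the higher average calls went from 185 to 340 and the higher genes shifted the same way from 107 to 193. With DESeq2 the lower average calls went from 105 to 178 and the lower list members from 21 to 54. The exact test gave 113 higher average calls.

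Of 3924 recomputed values of 131 named genes, 3195 kept direction and side of the threshold, 686 rose above the adjusted p of 0.05, 16 fell below it and 27 changed sign. With library size only the signs of Med13 (0.0726), Myh6 (0.107) and Rcan1 (0.0138) changed, and with no filter that of Myh6 (0.00504). In 8 against 8 hearts Gm12381 (-0.453, and -0.428 by the exact test) and Rcan1 (0.257 by both) changed. With the clock score 9430062P05Rik (-0.388), Akap5 (-0.194), Arntl (0.503), Ciart (-0.177), Med13 (0.00683) and Rcan1 (0.10) changed, and with the mitochondrial share Cdkn1a (0.0615). With 1 heart left out Akap5 ran from -0.0821 to 0.148, Myh6 from -0.122 to 0.112 and Rcan1 from -0.236 to 0.0134.

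Whether equal replicate numbers pair the hearts is not given in the labels, and the main fit used no pairing. Deviations of same-numbered hearts from their group means had correlations of -0.43 to 0.21, which cannot decide it. With the replicate block 210 genes were called in the average, 135 were shifted the same way, 7 had an interaction, 66 list members passed and Myh6 stood at 0.0202. With all counts halved, 275 genes were called in the average, 262 of them among the 290, and 168 were shifted the same way.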
